A study of Mus musculus with 10 samples.

Results

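Expanded Igh clonotypes are the heavy chain rearrangements of peritoneal cavity B-1a cells that were read most often. A clonotype is a V-D-J rearrangement with the amino acid sequence of its complementarity determining region 3 (CDR3), the part of the antibody that the V-D-J joint encodes. The members were chosen by their read count alone, as all clonotypes with 100 or more reads, which gave 839 of 195529 clonotypes over 4 libraries. They were compared with the 138383 clonotypes of the same libraries that rested on 1 read, called single-read clonotypes here. Since reads chose the members, their number and their share of the reads are descriptions and carry no test.

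All 4 libraries came from genomic DNA of sorted B-1a cells of C57BL/6 mice aged 6 to 8 weeks, 2 from wild-type mice and 2 from Igll1-/- mice. Igll1 encodes the lambda5 part of surrogate light chain, so the Igll1-/- cells form no complete pre-B cell receptor. Nothing else distinguished the groups in the labels. How many mice gave a library is not given in the sources used here. The tables hold no gene expression, so that the sorting gate could not be checked against marker genes.

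B-1a cells persist by self-renewal and secrete natural IgM. Many of them bind phosphatidylcholine, a membrane lipid, with receptors built on the V genes IGHV11-2 and IGHV12-3, also called VH11 and VH12. During the development of conventional B cells a new heavy chain is first tested by pairing with surrogate light chain, and rearrangement of the light chain follows.

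The CDR3 sequences of the leading clonotypes are shown first, because both phosphatidylcholine V genes were recognisable from them. They are amino acid sequences from the deposited tables. The first 3 IGHV11-2 clonotypes were the largest of that gene in both wild-type libraries and all used IGHJ1:
IGHV11-2 with IGHD2-1: MRYGNYWYFDV
IGHV11-2 with IGHD2-5: MRYSNYWYFDV
IGHV11-2 with IGHD1-1: MRYGSSYWYFDV
The IGHV12-3 clonotypes below led in wild-type replicate 1, in Igll1-/- replicate 1 and in Igll1-/- replicate 2, in that order. The first 2 have 12 residues with glycine at position 6, counted from the first residue of the CDR3, whereas the third has 13:
IGHV12-3 with IGHD2-3 and IGHJ1: AGDYDGYWYFDV
IGHV12-3 with IGHD1-1 and IGHJ1: AGDNYGYWYFDV
IGHV12-3 with IGHD2-3 and IGHJ2: AGDLYDGYYYFDY
The last set holds the 4 clonotypes that were expanded in all 4 libraries, none of which used either phosphatidylcholine V gene:
IGHV5-17 with IGHD1-1 and IGHJ2: ARHYYGSSYYFDY
IGHV1-47 with IGHJ3 and no D gene assigned: ARGGFAY
IGHV5-4 with IGHD1-1 and IGHJ2: ARDYYGSSYYFDY
IGHV1-26 or IGHV1-34 with IGHD1-1 and IGHJ1: ARDYYGSSWYFDV

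Expanded clonotypes numbered 140 and 183 in the wild-type libraries, compared with 182 and 334 in the Igll1-/- libraries. As a share of the clonotypes of their library this was 0.254% in wild-type replicate 1 (Wilson 95% confidence interval 0.215 to 0.300%) and 0.367% in replicate 2 (0.318 to 0.425%). For Igll1-/- replicates 1 and 2 the shares were 0.562% (0.486 to 0.649%) and 0.574% (0.516 to 0.639%). Libraries held between 180593 and 285517 reads, and the deepest was Igll1-/- replicate 2, which also had the most expanded clonotypes. The members held 36.2% of the reads in each wild-type library, and 49.8% and 44.3% in the Igll1-/- libraries. Both Igll1-/- libraries thus lay above both wild-type libraries, by 10.8 percentage points on average. With the limit scaled to depth, the wild-type libraries had 115 and 146 expanded clonotypes with 35.0% and 34.3% of the reads. The Igll1-/- libraries then had 182 and 207, with 49.8% and 38.7% of the reads, so replicate 2 lay closer to wild type. Single-read clonotypes held 12.97% to 17.96% of the reads. Reads carried no molecular barcode, so that many cells and strong amplification cannot be told apart, and intervals cover counting error only.

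Most members were only just expanded. Between 54.3% and 59.6% of them had under 200 reads, and 12, 8, 9 and 21 clonotypes reached 1000 reads in wild-type replicates 1 and 2 and Igll1-/- replicates 1 and 2. Within 10 reads above the limit lay 18, 23, 16 and 31 clonotypes, and within 10 reads below it lay 16, 24, 16 and 32, so no gap in the read counts set the members apart. The largest clonotype had 13602, 15813, 22183 and 10479 reads, which was 17.4%, 20.5%, 24.6% and 8.29% of the reads of the expanded clonotypes. The 6, 13, 7 and 41 largest clonotypes together held 50% of those reads. Igll1-/- replicate 2 was the library whose expanded reads were spread over the most clonotypes.

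The V genes behind these reads differed between the genotypes. IGHV11-2 and IGHV12-3 together held 82.3% and 67.7% of the expanded reads of wild-type cells but 36.7% and 20.2% of those of Igll1-/- cells. Expanded clonotypes on all other V genes numbered 62 and 113 in wild-type versus 152 and 310 in Igll1-/- libraries. They held 6.40% and 11.7% of all reads in wild-type versus 31.5% and 35.3% in Igll1-/- libraries, so that the genotypes lay further apart without the 2 genes than with them.

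**Figure D1:**
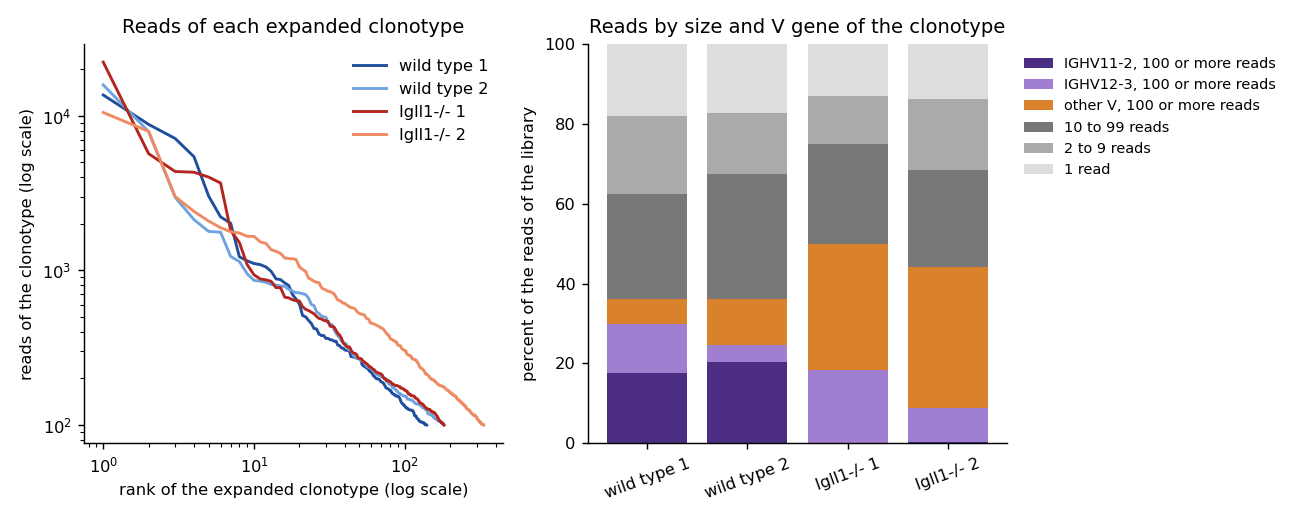
The left panel plots the reads of each expanded clonotype against its rank within its library, both on log scales, with 1 line per library. The right panel stacks the percent of reads of each library by the V gene and read count of the clonotype. Expanded IGHV11-2 clonotypes took 17.7% and 20.3% of the reads of wild-type cells but 0.127% and 0.188% of those of Igll1-/- cells.

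To ask which gene segments the expanded clonotypes used, each clonotype was counted once, and the counts per V gene were compared within libraries between expanded and single-read clonotypes. Of 97 V genes fitted, 6 passed an adjusted p of 0.05 (quasi-likelihood test of edgeR, Benjamini-Hochberg adjusted, with the library as a block), which is 6.19% of the genes. IGHV12-3, IGHV11-2 and IGHV9-3 were more frequent among expanded clonotypes, and IGHV1-15, IGHV1-81 and IGHV1-9 were less frequent. DESeq2 called IGHV12-3 and IGHV9-3 alone. Of the 97 genes, 37 had no expanded clonotype at all. Genes with few clonotypes in both classes were left out by the minimum for the fit. One of them, IGHV1-55, had 1, 2, 3 and 2 expanded against 7, 3, 3 and 3 single-read clonotypes. Its share was higher among expanded clonotypes in all 4 libraries, without overlap. It was called with no minimum, with a limit of 50 reads, against clonotypes of 2 to 9 reads and with the first listed gene counted.

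IGHV12-3 took 38.6% and 16.4% of the expanded clonotypes in wild-type libraries and 15.9% and 6.29% in Igll1-/- libraries, against 4.83%, 4.31%, 4.13% and 4.09% of the single-read clonotypes. The shares of the 2 classes did not overlap, with a log2 fold change of 1.91 ± 0.46 (SE) and an edgeR adjusted p of 0.0014. The call was lost without wild-type replicate 1, wild-type replicate 2 or Igll1-/- replicate 1, at log2 fold changes of 1.52, 1.90 and 1.89 (edgeR adjusted p = 0.085, 0.063 and 0.21), with near copies of larger clonotypes left out (1.41, edgeR adjusted p = 0.062) and with a limit of 200 reads (2.12, edgeR adjusted p = 0.11). Its expanded clonotypes numbered 54, 30, 29 and 21. In Igll1-/- replicate 1, 22 of the 29 were near copies of a larger clonotype, meaning that a clonotype with the same J gene, at most 1 changed CDR3 residue and at least 10 times the reads was present. Of the 54, 30 and 21 in the other libraries, 4, 0 and 11 were near copies. VH12-specific primers were added to the primer pool of the libraries, and their part in these shares was not tested.

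IGHV11-2 was expanded in wild-type cells. It had 24 and 40 expanded clonotypes in the wild-type libraries, with 38144 and 43114 reads, and 1 and 3 in the Igll1-/- libraries, with 229 and 536 reads. Of the 24 and 40, 7 and 19 were near copies of a larger clonotype. These were 17.1% and 21.9% of expanded clonotypes in wild-type versus 0.549% and 0.898% in Igll1-/- libraries, against 2.70%, 3.998%, 0.858% and 1.04% of single-read clonotypes. Over all 4 libraries the log2 fold change of expanded over single-read clonotypes was 1.73 ± 0.42 (SE, edgeR adjusted p = 0.0014), although only the 2 wild-type libraries lay above their own single-read share. The call was lost without either wild-type library (1.32 and 1.26). The change from single-read to expanded clonotypes itself differed between the genotypes for IGHV11-2, by −2.88 ± 0.69 (SE) on the log2 scale in Igll1-/- relative to wild-type cells (edgeR adjusted p = 0.0048). It was the 1 gene of the 97, or 1.03%, to pass that test. The call was lost without any 1 of the 4 libraries, at −2.75 to −3.19, against clonotypes of 2 to 9 reads (−2.07, edgeR adjusted p = 0.66), and with near copies left out (−2.13, edgeR adjusted p = 0.17), where IGHV12-3 passed in its place (−2.72). IGHV12-3 also passed, beside IGHV11-2, with a limit of 200 reads (−2.14), and with DESeq2 0 genes passed, where 2 had an unadjusted p under 0.05.

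IGHV9-3 had no expanded clonotype in wild-type replicate 1, which allows a share of up to 2.14%, and 14, 9 and 22 in wild-type replicate 2 and Igll1-/- replicates 1 and 2. Only 14, 5, 5 and 9 single-read clonotypes were listed with IGHV9-3 alone, while 535, 898, 432 and 783 were listed with IGHV9-2-1 and IGHV9-3 together and counted to neither. The log2 fold change of 7.64 ± 0.53 (SE, edgeR adjusted p = 3.07e-34) therefore compares unlike listings. With the joint listing counted to IGHV9-3, an alternative chosen after seeing the data, the gene had 0, 29, 22 and 38 expanded clonotypes and the log2 fold change was 2.19 ± 0.45 (SE, edgeR adjusted p = 0.00023).

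The 3 genes that were less frequent belong to the large IGHV1 family, also called J558. IGHV1-81 was found for 1 expanded clonotype of 839, where the single-read shares of the libraries would give 15.2, a ratio of 0.0659 (exact Poisson 95% interval 0.0017 to 0.367, edgeR adjusted p = 0.0012). IGHV1-9 had 3, where 15.1 would be given, a ratio of 0.198 (0.0409 to 0.580, edgeR adjusted p = 0.017). IGHV1-15 had 0, 0, 1 and 8 expanded clonotypes and a log2 fold change of −1.67 ± 0.54 (SE, edgeR adjusted p = 0.032). All 3 calls were lost without wild-type replicate 2, those of IGHV1-9 and IGHV1-15 also without wild-type replicate 1, and that of IGHV1-15 without Igll1-/- replicate 1. Those of IGHV1-9 and IGHV1-15 were also lost with TMM scaling, against clonotypes of 2 to 9 reads and without near copies, and those of IGHV1-81 and IGHV1-9 with a limit of 200 reads, while each stayed lower among expanded clonotypes in these fits. Over all IGHV1 listings, which the assignment between its close members does not affect, the family held 31.4% and 32.2% of expanded clonotypes in wild-type versus 44.0% and 46.4% in Igll1-/- libraries. It held 56.5% to 59.5% of single-read clonotypes, so the classes did not overlap. IGHV11-2 and IGHV12-3 were then left out, a selection made after seeing the data. IGHV1 made up 44 of 62 and 59 of 113 remaining expanded clonotypes in wild-type versus 80 of 152 and 155 of 310 in Igll1-/- libraries. Single-read counts were 22764 of 35876, 21756 of 33532, 13702 of 22260 and 22368 of 37559. The IGHV1 share was then higher among expanded clonotypes in wild-type replicate 1 and lower in the other libraries. Among clonotypes listed with 1 V gene, IGHV5-17 had the most expanded clonotypes after IGHV12-3, at 8, 8, 12 and 54, but 54 of its 82 came from Igll1-/- replicate 2.

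**Figure D2:**
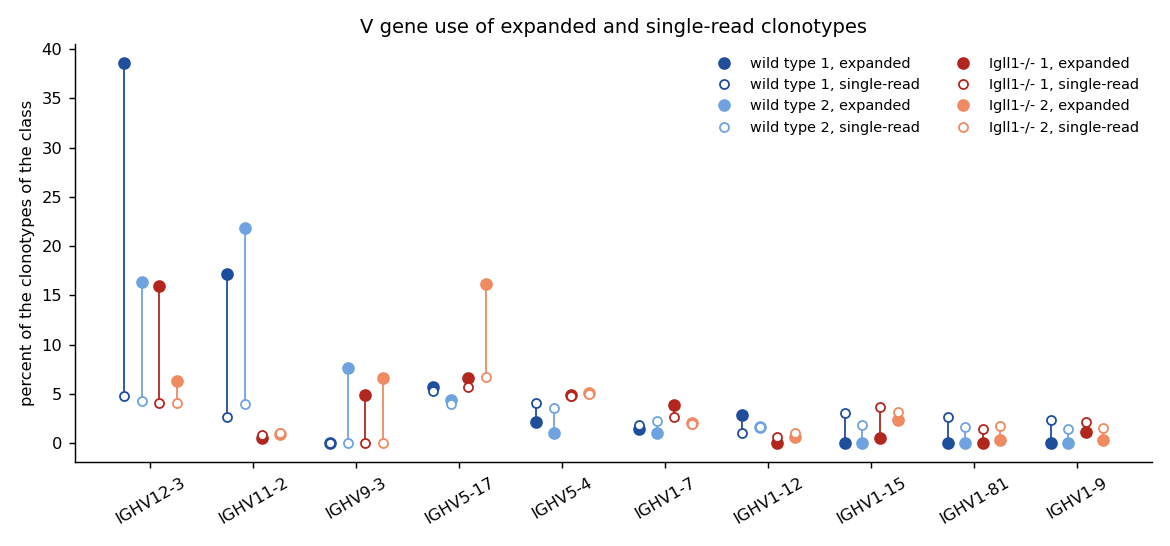
Filled points give the percent of expanded clonotypes and open points the percent of single-read clonotypes on each V gene, 1 pair per library. IGHV12-3 lay higher among expanded clonotypes in all 4 libraries and IGHV11-2 in the 2 wild-type libraries only, whereas IGHV1-15, IGHV1-81 and IGHV1-9 lay lower in all 4 libraries.

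The other listed V genes for B-1a and early repertoires were read against these numbers. Both phosphatidylcholine genes passed in the direction of the expanded clonotypes, with a median log2 fold change of 1.82. For IGHV11-2 this held in the wild-type libraries only. The gene lists were chosen with earlier results of these data known, so their medians are descriptions. The median over all 97 genes was −1.67, or −0.72 with genes that had no expanded clonotype at the bound that 3 clonotypes allow, where 34 genes too rare for a bound were left out. None of the 3 D-proximal genes passed. IGHV5-1 had 1 expanded clonotype, IGHV2-2 had 4, all of them in Igll1-/- libraries, where 0.920 would be given, a ratio of 4.35 (exact Poisson 95% interval 1.18 to 11.1, edgeR adjusted p = 0.15), and IGHV5-2, known as VH81X and used early in fetal life, had 0 where 3.29 would be given. The 3 genes did not share a direction, and their median was −2.39, or −0.13 with IGHV5-2 at its bound. IGHV5-1 and IGHV2-2 passed with a limit of 50 reads. IGHV7-1, the gene of the phosphorylcholine-binding T15 antibodies, had 0 expanded and 14 single-read clonotypes over the 4 libraries, so that no fold could be given.

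Between the genotypes, 10 V genes had enough expanded clonotypes to be fitted, and IGHV11-2 was the 1 that passed, or 10% of them (edgeR's quasi-likelihood test). It reached the minimum of 5 clonotypes in the 2 wild-type libraries only, so its entry into the fit was not independent of its direction. With no minimum of clonotypes, 66 genes were fitted and the 1 called was again IGHV11-2. Its share fell from 19.5% ± 3.3 (SD, n = 2) in wild-type to 0.724% ± 0.247 (SD, n = 2) in Igll1-/- expanded clonotypes, a log2 fold change of −4.58 ± 1.16 (SE, edgeR adjusted p = 0.0077). The call was lost without Igll1-/- replicate 1 or 2, at −4.36 and −4.98 (edgeR adjusted p = 0.23 and 0.092), and without either wild-type library the gene had too few clonotypes to be fitted. IGHV12-3 held 27.5% ± 15.7 and 11.1% ± 6.8 (SD, n = 2 each) of the expanded clonotypes. The libraries did not overlap, but wild-type replicate 2 and Igll1-/- replicate 1 were nearly level and the change did not pass (log2 fold change −1.32 ± 0.78 SE, edgeR adjusted p = 0.35). It passed with near copies of larger clonotypes left out (−2.87 ± 0.63 SE, edgeR adjusted p = 0.035), and with reads counted in place of clonotypes it turned to 0.31. IGHV5-4 at 1.65 ± 0.83 (SE), IGHV5-17 at 1.20 ± 0.997 (SE) and IGHV1-7 at 1.15 ± 0.68 (SE) were higher in both Igll1-/- libraries, with edgeR adjusted p-values of 0.31 to 0.41. IGHV5-4 had 3 and 2 expanded clonotypes in wild-type versus 9 and 17 in Igll1-/- libraries, and IGHV1-7 had 2 and 2 versus 7 and 7. Both reached the minimum for the fit in the Igll1-/- libraries only, so their direction was not independent of that filter. IGHV1-12 had 4 and 3 expanded clonotypes in wild-type versus 0 and 2 in Igll1-/- libraries, too few to be fitted. Clonotypes listed with IGHV1-26 and IGHV1-34 together, which entered no V gene count, numbered 2 and 3 in wild-type versus 21 and 37 in Igll1-/- libraries. Among single-read clonotypes this listing held 1.73% and 1.73% in wild-type versus 2.64% and 2.32% in Igll1-/- libraries. When such listings were counted to their first gene, IGHV1-26 passed in edgeR beside IGHV11-2, as higher in Igll1-/- expanded clonotypes. In that setting it also passed for the genotype difference of the class change.

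D gene use was compared in the same way. Of 23 D genes fitted, 4 passed between expanded and single-read clonotypes (edgeR's quasi-likelihood test), which is 17.4%. IGHD4-1, the short DQ52 segment next to the J genes, was more frequent in all 4 libraries, at 14.3%, 17.5%, 12.1% and 9.58% of expanded against 9.34%, 11.5%, 9.10% and 8.33% of single-read clonotypes (log2 fold change 0.43 ± 0.16 SE, edgeR adjusted p = 0.046). IGHD2-4 was less frequent in all 4, with 43 expanded clonotypes and a log2 fold change of −0.59 ± 0.22 (SE, edgeR adjusted p = 0.046). IGHD1-2 and IGHD6-3 had 6 and 1 expanded clonotypes, where 15.2 and 7.91 would be given at the single-read shares, and each had an edgeR adjusted p of 0.046. None of the 4 passed once near copies of larger clonotypes were left out, with a limit of 50 or 200 reads, or without any of wild-type replicate 1, wild-type replicate 2 and Igll1-/- replicate 1. DESeq2 called IGHD4-1 and IGHD2-3. The latter was more frequent among expanded clonotypes in 3 of 4 libraries (log2 fold change 0.35 ± 0.16 SE, edgeR adjusted p = 0.10) and passed in edgeR with TMM scaling.

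Of 8 D genes with enough expanded clonotypes, 0 passed between the genotypes, or 0%, with edgeR and also with DESeq2, and 1 had an unadjusted p under 0.05 by edgeR and 2 by DESeq2. The former was IGHD4-1, at 15.9% ± 2.3 in wild-type and 10.8% ± 1.8 in Igll1-/- expanded clonotypes (SD, n = 2 each; log2 fold change −0.62 ± 0.25 SE, edgeR adjusted p = 0.22). IGHD1-1, the long DFL16.1 segment and the most used D gene, was at 25.7% in both wild-type libraries and at 31.3% and 32.6% in the Igll1-/- libraries, which is 0.32 higher on the log2 scale (edgeR adjusted p = 0.25). IGHD2-4 lay higher and IGHD2-1 lower in both Igll1-/- libraries, at log2 fold changes of 1.19 ± 0.73 and −0.67 ± 0.38 (SE, edgeR adjusted p = 0.25 each). IGHD2-14 had 0 and 0 expanded clonotypes in wild-type versus 2 and 2 in Igll1-/- libraries, and IGHD3-1 had 5, 3, 2 and 3.

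The expanded clonotypes of wild-type cells favoured IGHJ1. It was used by 37.1% and 40.4% of them in wild-type libraries and by 23.1% and 10.2% in Igll1-/- libraries, whereas single-read clonotypes used it in 13.1%, 17.2%, 12.5% and 11.2%. Expanded lay above single-read clonotypes in 3 of 4 libraries, by 14.2 ± 11.9 percentage points (SD, n = 4, exact paired permutation test, p = 0.25, adjusted p = 0.375). IGHJ2 was lower among expanded clonotypes in all 4 libraries, at a difference of −4.90 ± 2.62 percentage points, and IGHJ3 and IGHJ4 in 3 of 4, at −3.96 ± 6.41 and −5.31 ± 6.54 percentage points (SD, n = 4 each). Their exact adjusted p-values were all 0.375, and the smallest unadjusted p that 4 paired libraries allow is 0.125. Between the genotypes, both Igll1-/- libraries lay below both wild-type libraries for IGHJ1, by 22.2 percentage points, and above them for IGHJ3 and IGHJ4, by 11.05 and 11.20 percentage points. Each gave an exact permutation p of 0.333, the smallest that 2 libraries against 2 allow, and an adjusted p of 0.444. IGHJ2 was at 39.7% ± 3.5 in wild-type and 39.6% ± 0.8 in Igll1-/- expanded clonotypes (SD, n = 2 each, exact permutation test, p = 1).

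In the wild-type libraries most IGHJ1 joints lay on the phosphatidylcholine genes, at 50 of 52 and 58 of 74, whereas in the Igll1-/- libraries it was 23 of 42 and 6 of 34. Of the expanded IGHV11-2 clonotypes, 65 of 68 used IGHJ1, and of the expanded IGHV12-3 clonotypes 72 of 134 used IGHJ1, 56 IGHJ2, 6 IGHJ3 and 0 IGHJ4. Without both genes, a selection made after seeing the data, IGHJ1 was used by 3.23%, 14.2%, 12.5% and 9.03% of expanded and by 10.3%, 14.3%, 10.98% and 10.6% of single-read clonotypes. It was then higher among expanded clonotypes in 1 of 4 libraries.

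**Figure D3:**
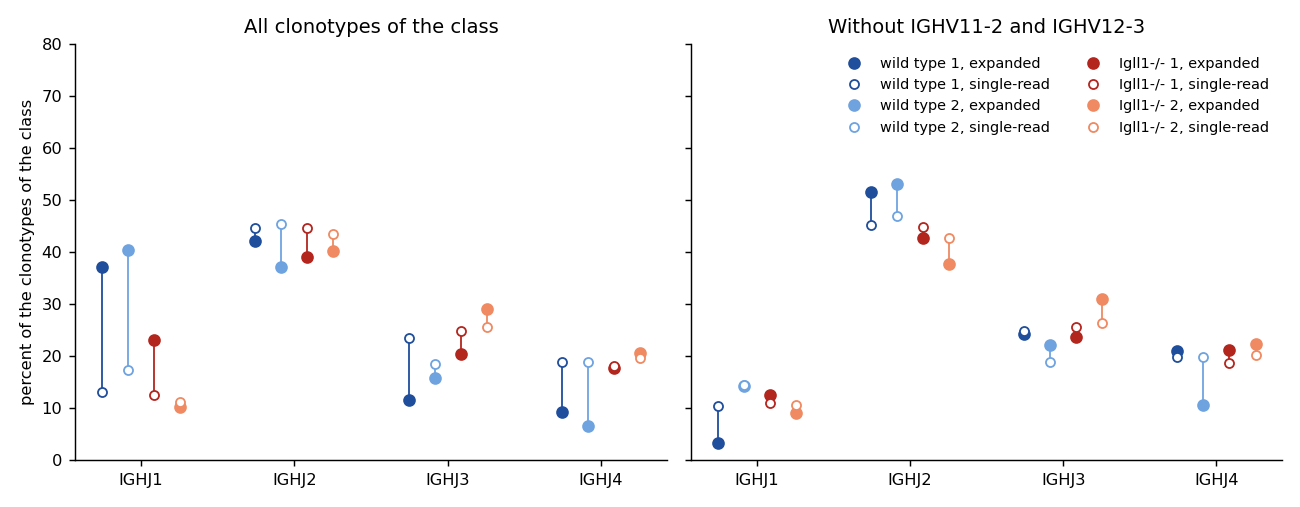
Percent of expanded (filled) and single-read (open) clonotypes that used each J gene, 1 pair per library. The left panel holds all clonotypes and the right panel leaves out IGHV11-2 and IGHV12-3, where IGHJ1 lay higher among expanded clonotypes in Igll1-/- replicate 1 alone, at 12.5% against 10.98%.

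Among expanded and productive IGHV11-2 clonotypes, all 22 and 39 of the wild-type libraries used IGHJ1, and 21 and 39 of them had a CDR3 of 11 or 12 residues. The CDR3 began with MRY in 20 and 30, counted with their near copies. Among productive single-read IGHV11-2 clonotypes of the same libraries, 71.5% and 66.1% used IGHJ1 and 53.8% and 40.2% began with MRY. Among expanded and productive IGHV12-3 clonotypes, 52 of 54 and 27 of 30 in wild-type and all 26 in Igll1-/- replicate 1 had 12 residues with glycine at position 6, the pattern known for phosphatidylcholine-binding VH12. Near copies of a larger clonotype made up 4 of the 52, 0 of the 27 and 19 of the 26. Whether near copies were separate rearrangements was not tested, so the 26 cannot be counted as separate instances of the pattern. In Igll1-/- replicate 2 the pattern was seen in 5 of 16, and 8 of the 16 had 13 residues. The pattern was found in 67.2%, 48.8%, 58.9% and 25.7% of productive single-read IGHV12-3 clonotypes, so its share was higher among the expanded in all 4 libraries.

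CDR3 length was next compared over all productive clonotypes. Its mean was 10.9 and 10.2 residues in wild-type versus 10.4 and 9.99 residues in Igll1-/- expanded clonotypes, and 10.8, 10.6, 10.5 and 10.4 in single-read clonotypes. The difference of −0.21 ± 0.22 residues (SD, n = 4, exact paired permutation test, p = 0.25, adjusted p = 0.25) was within the spread of the libraries. It turned to 0.18 residues when the comparison was with clonotypes of 2 to 9 reads and to 0.07 with a limit of 200 reads. The genotypes overlapped, at 10.6 ± 0.5 residues in wild-type and 10.2 ± 0.3 in Igll1-/- expanded clonotypes (SD, n = 2 each, exact permutation test, p = 0.667).

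The distributions of length were also compared. Exactly 12 residues were found in 48.1% and 29.9% of productive expanded clonotypes in wild-type versus 24.7% and 11.6% in Igll1-/- libraries, against 12.5% to 16.6% of single-read clonotypes. A CDR3 of 15 or more residues was found in 1.504%, 1.72%, 8.05% and 6.88% of expanded and in 7.65% to 8.36% of single-read clonotypes. Long CDR3s were thus rarer among expanded clonotypes in all 4 libraries, by under 1 percentage point in the Igll1-/- libraries. Outside IGHV11-2 and IGHV12-3 the expanded clonotypes were shorter in all 4 libraries, at 9.53, 9.25, 10.1 and 9.86 residues against 10.7, 10.5, 10.5 and 10.3, a mean difference of −0.84 ± 0.46 residues (SD, n = 4). Tyrosine made up 23.8% ± 0.9 of the CDR3 residues of expanded and 22.2% ± 0.4 of those of single-read clonotypes (SD, n = 4 each) and was higher in all 4 libraries.

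**Figure D4:**
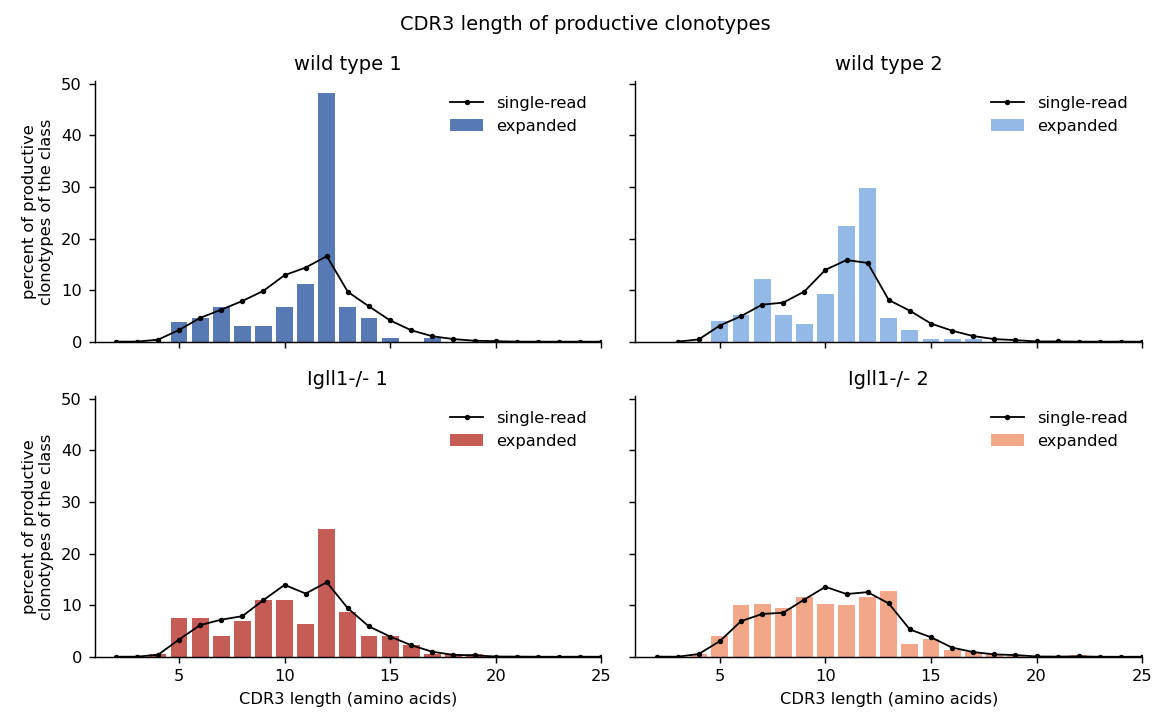
Percent of productive clonotypes by CDR3 length in residues, up to 25 residues, with bars for expanded and a line for single-read clonotypes, 1 panel per library. Wild-type replicate 1 had 48.1% of its expanded clonotypes at 12 residues, whereas Igll1-/- replicate 2 had 11.6% there and no single leading length.

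Nearly all expanded clonotypes were productive, as judged on the representative sequence of each. Their productive share was 95% (Wilson 95% confidence interval 90.04 to 97.56%) and 95.1% (90.9 to 97.4%) in wild-type and 95.6% (91.6 to 97.8%) and 95.8% (93.1 to 97.5%) in Igll1-/- libraries. Single-read clonotypes were productive in 91.4%, 92.7%, 93.7% and 93.1%. The expanded share was higher in 4 of 4 libraries, by 2.64 ± 0.69 percentage points (SD, n = 4, exact paired permutation test, p = 0.125, the smallest possible, adjusted p = 0.167). The Igll1-/- libraries lay 0.67 percentage points higher (exact permutation test, p = 0.333, adjusted p = 0.667), and lower by 0.90 and 0.61 percentage points with limits of 200 and 50 reads.

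The 7, 9, 8 and 14 unproductive expanded clonotypes held 1.98%, 4.40%, 5.86% and 10.8% of the expanded reads. Of these 38 clonotypes, 29 had a stop codon in the CDR3 and 9 had none. The largest of the 9, on IGHV12-3 with 7917 reads in Igll1-/- replicate 2, read AGDMMGYWYFDV, with the glycine at position 6. It was therefore not counted among the productive IGHV12-3 clonotypes above.

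Expanded clonotypes were closer to the germline V sequence over the stretch that the primers amplify. Their mean identity to the assigned V gene was 99.6% in both wild-type libraries and 99.3% and 99.1% in Igll1-/- libraries, against 98.1%, 98.1%, 98.2% and 98.0% for single-read clonotypes. The difference was 1.30 ± 0.20 percentage points (SD, n = 4) and positive in 4 of 4 libraries (exact paired permutation test, p = 0.125, adjusted p = 0.167). A full match was found for 84.3%, 80.3%, 80.8% and 72.2% of expanded and for 33.4% to 39.1% of single-read clonotypes. Both classes come from the same PCR, and the part of PCR and sequencing errors in single reads was not tested. Single-read clonotypes with the V and J gene of an expanded clonotype and at most 1 changed residue made up 3.39% to 6.85% of their class, and with the J gene alone required to match, as for near copies, 9.16% to 29.3%. Of the 39 expanded clonotypes under 95% identity, 31 were assigned to IGHV5-17. The genotypes did not overlap, with Igll1-/- libraries lower by 0.35 percentage points (exact permutation test, p = 0.333).

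Finally, the expanded clonotypes of each library were looked for in the other libraries, as the same V gene, J gene and CDR3. Of the expanded clonotypes, 90.7% and 72.7% in wild-type versus 76.9% and 68.3% in Igll1-/- libraries were found in at least 1 other library, against 19.9% to 28.7% of single-read clonotypes. This difference of 54.1 ± 9.3 percentage points (SD, n = 4) was positive in 4 of 4 libraries (exact paired permutation test, p = 0.125, adjusted p = 0.167). The search used amino acid sequence, so that separate rearrangements with the same CDR3 count as found. Samples were pooled for sequencing, and whether reads of 1 library were assigned to another was not tested. In single pairs of libraries, between 35.6% and 77.9% of the expanded clonotypes of 1 library were found in the other. The mean was 58.2% for the 4 searches within a genotype and 56.0% for the 8 between genotypes, and this order reversed without wild-type replicate 1 or 2, to differences of −1.56 and −22.1 percentage points.

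Most of these matches were rare in the second library. Where an expanded clonotype was found, it had under 10 reads there in 62.6% to 79.4% of cases between genotypes. Between the Igll1-/- libraries it was 64.6% and 64.7%, within that range, and between the wild-type libraries 32.8% and 47.7%. Clonotypes expanded in both libraries of a pair were most frequent in wild-type cells, where 38 of 140 and 39 of 183, or 27.1% and 21.3%, were expanded in the other wild-type library. Between the Igll1-/- libraries it was 23 of 182 and 22 of 334, or 12.6% and 6.59%. Between genotypes the numbers ran from 8 to 13, or 2.40% to 7.14%.

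**Figure D5:**
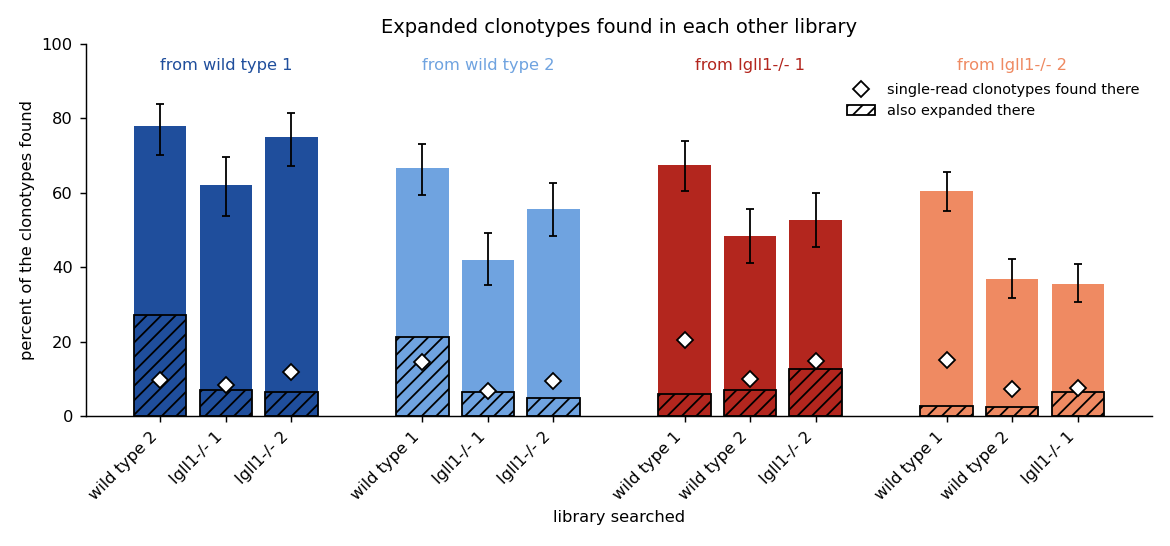
Bars give the percent of the expanded clonotypes of each library that were found in each other library, with Wilson 95% confidence intervals. Hatching marks those also expanded there, and diamonds the percent of single-read clonotypes found there, at 6.69% to 20.6%. Every bar lay above its diamond.

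In all, 67 of 752 expanded V-J-CDR3 combinations were expanded in more than 1 library, 57 in 2, 6 in 3 and 4 in all 4. Of these, 31 were expanded in wild-type libraries only, and 23 of the 31, or 74.2%, used IGHV11-2 or IGHV12-3. Among all expanded clonotypes, the 2 genes made up 55.7% and 38.3% in wild-type versus 16.5% and 7.19% in Igll1-/- libraries. Another 15 were expanded in both Igll1-/- libraries only, and among these 1 used IGHV12-3, 7 the joint listing of IGHV1-26 and IGHV1-34, and 3 IGHV9-3. All 31 were found in at least 1 Igll1-/- library at a lower count, and 27 in both. Of the 15, 11 were found in both wild-type libraries at a lower count and 3 in neither. The part of reads assigned to the wrong library in these lower counts was not tested. The clonotype MRYGNYWYFDV on IGHV11-2, with all rows of that V, J and CDR3 summed, had 13691 and 15993 wild-type reads but 66 and 129 Igll1-/- reads. Expansion was judged on single rows, not on this sum, and MRYGNYWYFDV was expanded in 3 libraries. MRYSNYWYFDV had 5464, 7961, 41 and 59 reads, and MRYGSSYWYFDV had 8858, 2986, 58 and 135. No single row of MRYGSSYWYFDV on IGHV11-2 reached 100 reads in Igll1-/- replicate 2. Its CDR3 and J gene under any V listing had 553 reads in that library. All 3 of these clonotypes were among the 5 largest of both wild-type libraries. MRYGSSWYFDV had 2232, 505, 20 and 13 reads, and several IGHV11-2 clonotypes were larger than it in wild-type replicate 2.

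The IGHV12-3 clonotypes were less even between replicates. AGDYDGYWYFDV had 7155 and 504 reads in wild-type versus 38 and 49 in Igll1-/- libraries. AGDNYGYWYFDV, the largest clonotype of all, had 22381 reads in Igll1-/- replicate 1 but 88 in replicate 2, and 307 and 236 in the wild-type libraries. AGDLYDGYYYFDY had 10523 reads in Igll1-/- replicate 2 and 25 in replicate 1, while the wild-type libraries had 89 and 19. Also on IGHV12-3, AGDSDGYYYFDY was expanded in 3 libraries, with 987, 226, 210 and 3 reads. The leading IGHV12-3 clonotype of each Igll1-/- library was thus under 100 reads in the other.

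The clonotypes expanded everywhere used other V genes. ARHYYGSSYYFDY on IGHV5-17 had 3063 and 777 reads in wild-type versus 5747 and 123 in Igll1-/- libraries. Its V identity was only 90% in wild-type replicate 1 and in Igll1-/- replicate 1, and whether IGHV5-17 was the right assignment was not tested. Under any V listing, this CDR3 and J gene had 3447 and 1155 reads in wild-type versus 6604 and 2057 in Igll1-/- libraries. It was also expanded on IGHV5-4 in both Igll1-/- libraries. ARGGFAY on IGHV1-47 had 798, 717, 4307 and 833 reads, and ARDYYGSSYYFDY on IGHV5-4 had 180, 146, 298 and 733. ARDYYGSSWYFDV, on IGHV1-26 or IGHV1-34, had 371, 203, 157 and 183 reads and was the most even of the 4. Of those expanded in 3 libraries, ATGTWFAY on IGHV1-19 had 277, 60, 489 and 1743 reads, ANWDFDY on IGHV1-82 had 5, 167, 675 and 625, and ARLFAY on IGHV1-26 or IGHV1-34 had 76, 106, 145 and 731. Among those of the Igll1-/- libraries, ARSTVVAMDY on IGHV9-3 with IGHJ4 had 645 and 2998 reads there and 0 in both wild-type libraries. The same CDR3 and J gene under any V listing had 17 and 0 reads in wild-type libraries.

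The other clonotypes among the 5 largest of a library varied as widely. MRYDGNYWYFDV on IGHV11-2 had 30 and 2151 reads in wild-type versus 4 and 5 in Igll1-/- libraries, and MRYNSNYWYFDV had 389, 1796, 14 and 11. AGDRGGYYYFDY on IGHV12-3 had 4372 reads in Igll1-/- replicate 1, against 91, 9 and 7 in wild-type replicates 1 and 2 and Igll1-/- replicate 2. The 5-residue YYSDY, on IGHV1-26 or IGHV1-34, had 4063 reads in Igll1-/- replicate 1 and 39, 9 and 10 in the same other libraries. In Igll1-/- replicate 2, ARWLLPY on IGHV5-4 had 2116 reads, against 24, 6 and 7 in wild-type replicates 1 and 2 and Igll1-/- replicate 1. ATMITTWFAY on IGHV9-3 had 2404 reads there and 0 in the other libraries under that V listing. Apart from MRYNSNYWYFDV, each of these was expanded in 1 library.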

How the data were processed

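Igh rearrangements of genomic DNA from sorted B-1a cells were amplified by the authors with framework 3 and J primers, with VH12 primers added, sequenced, and annotated with IMGT/HighV-QUEST. Software versions beyond that are not given in the sources used here. The deposited tables list 1 clonotype per line with its read count, V, D and J gene, CDR3, functionality and V identity in percent. Reads carry no molecular barcodes, so intervals cover counting error only. The members and gene lists were chosen with earlier results of these data known.

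Clonotype counts per V gene (listings with several genes left out) and per D gene were fitted with edgeR 4.0.16 (quasi-likelihood, library totals as offsets) in R 4.3.3, keeping genes that reached 5 clonotypes in 2 or more of the columns compared, and p-values were Benjamini-Hochberg adjusted. Class comparisons had the library as a block. J genes and the other 4 measures were tested with two-sided exact permutation tests over libraries, in families of 4. With 2 libraries per genotype, p-values measure only the spread between these libraries. Named were V genes (at most 8 in each direction) and D genes (at most 4) past the threshold, where fewer than 3 passed the 3 largest differences in mean share without overlap, the J genes, the listed V genes, the 5 largest clonotypes of each library and the 10 with most reads among those expanded in several. Other clonotypes and listings were chosen after their values were seen. The scripts were tested on simulated data. DESeq2 1.42.0 was an alternative.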

Additional observations from a re-analysis of the deposited data

Results flagged for a closer look

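The change from single-read to expanded clonotypes differed between the genotypes for IGHV11-2, by −2.88 on the log2 scale in Igll1-/- relative to wild-type libraries (edgeR adjusted p = 0.0048). With 2 libraries per genotype, no search for a library far from the others of its group could be made.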

How the results depend on the processing

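The number of V genes that differed between expanded and single-read clonotypes (6) was 2 with DESeq2, 11 with the first listed gene counted, 22 with a limit of 50 reads, 10 with no minimum of clonotypes and 3 without near copies, the last an alternative chosen after seeing the data. It ran from 1 to 11 when 1 library was left out. Between genotypes the number (1) was 2 with the first listed gene, 3 at 50 reads and 2 without near copies, and 0 to 1 with 1 library left out, where the call without wild-type replicate 2 was IGHV9-3. For the genotype difference of the class change (1) it was 0 with DESeq2 and against clonotypes of 2 to 9 reads, 2 with the first listed gene and 2 at 200 reads, and 0 to 1 with 1 library left out, and without near copies IGHV12-3 replaced IGHV11-2. The number of D genes (4) was 2 with DESeq2, of which IGHD4-1 was among the 4 and IGHD2-3 was not. It was 1 with rows of the same V, J and CDR3 merged and 1 with the limit scaled to depth. It was 0 against 2 to 9 reads, without near copies, at 50 or 200 reads and for productive clonotypes only, and 0 to 4 with 1 library left out. With the replicate number as a block, the replicate block fit called 2 V genes between genotypes, IGHV11-2 and IGHV12-3, and 0 D genes. Same-numbered libraries deviated together (r = 0.42 across 10 V genes), but 2 pairs do not establish pairing.

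Some directions turned, and the cause was not tested. IGHV12-3 between genotypes became 0.31 by reads, and IGHD2-1 became 0.30 at 200 reads. The genotype difference in productive share became −0.897 and −0.613 percentage points at 200 and 50 reads. The class difference in CDR3 length became 0.176 residues against 2 to 9 reads and 0.0744 at 200 reads. The genotype difference of IGHJ2 (−0.085) became 0.156 when merged, 11.7 at 200 reads and 1.36 with the scaled limit, and ran from −2.58 to 2.41 with 1 library left out. Sharing within minus between genotypes (2.20 percentage points) became −1.56 without wild-type replicate 1 and −22.1 without wild-type replicate 2, and ran up to 17.2 without Igll1-/- replicate 2. For single named genes, 79 values lost their call under an alternative and 5 gained one, in the same direction. Clonotype numbers limit genes with few members.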
